A study of Mus musculus with 8 samples.

Results

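The genes described here flank the immunoglobulin heavy chain (IgH) locus of the mouse, near the distal end of chromosome 12. They were chosen by position: every gene of chromosome 12 that starts at or beyond position 111000000 in the deposited gene count table, apart from entries whose name begins with Igh. This gave 109 of 41250 genes. In the same table the 145 Igh entries left out spanned 12:113258768-116000461 (GRCm38), a stretch of 2.74 Mb. Of the 109 members, 63 lay on the side of the constant gene Igha, called the 3' side, and 33 lay beyond the variable segments, called the V side. The other 13 lay among the Igh entries and so did not flank the locus in a strict sense. At the edge of the window, Ankrd9 started at 110975353, just outside, and Rcor1 started at 111039351, just inside.

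RNA was sequenced from splenic B cells of mice homozygous for the 3'RR deletion, the hs3b-hs4 deletion or the 3'PAL deletion and of wild-type mice, all on a mixed background that the labels write as 129/C58BL/6. The cells were either stimulated for 48 hours in culture with 5 µg/mL lipopolysaccharide (LPS), an outer membrane molecule of bacteria that B cells sense through TLR4, or resting, that is taken directly after purification by density gradient and CD43 depletion. Each of the 8 libraries pooled equal numbers of cells from 4 animals, and each genotype and state had 1 library, so no value below has a replicate of its own. The labels name the mice as homozygous knock-outs, and which sequences the 3'PAL deletion removes is not stated in the labels.

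The 3' regulatory region (3'RR) is a cluster of enhancers between Igha and the first genes of the 3' side. It is known to drive IgH transcription and class switching in B cells, and hs3b and hs4 are enhancers at and near its distal end. In the known 3'PAL model the enhancers remain and their palindromic arrangement is lost. Enhancers can act on genes over long distances, and boundary elements that bind CTCF are known to lie between the 3'RR and the neighbouring genes. The values below therefore describe the neighbours of the locus in mice without the cluster, without some of its enhancers or without its palindromic order.

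Total counts per library ran from 17883683 to 28785192, with the smallest total in resting wild-type cells, and 3 counts corresponded to 0.106 to 0.156 CPM (counts scaled to library size). The members together took 0.1537 to 0.2128% of the counts. B cell markers were abundant in every library, with summed levels of 3759 to 4817 CPM in stimulated and 7881 to 9285 CPM in resting cells. The 8 erythroid markers summed to 10.33 to 244.0 CPM in stimulated and 3109 to 21540 CPM in resting cells, and 10 monocyte and macrophage markers to 12.09 to 20.63 CPM in stimulated and 367.8 to 1630 CPM in resting cells. The 5 neutrophil markers summed to 0 to 0.07923 CPM in stimulated and 0.3631 to 3.244 CPM in resting cells. Of these, Ly6g was at or under 3 counts in every library. For the members the resting wild-type library stood apart in the transcript table as well, which gives TPM (transcripts scaled to length and depth). Of 22 members with a resting median of at least 10 TPM, wild-type was the lowest of the 4 stimulated libraries for 2 and the lowest of the 4 resting libraries for 21. The share over all genes of that table is not given here, so this count cannot be read as a trait of the members. Comparisons below use scaled gene counts instead. A resting mutant library can be set only against this 1 wild-type library, so those ratios cannot be given without it.

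Of the 109 members, 85 had a count in some library and 64 had more than 3 counts in at least 1 library. A filter on low counts left 52 members for testing, 41 on the 3' side, 2 among the Igh entries and 9 on the V side, and the other 57 were not tested. Levels per transcript length could be compared for the 76 members found in the transcript tables. In stimulated cells 18 of these had a median over the 4 genotypes of at least 10 TPM and 34 a median under 1 TPM, and in resting cells 22 and 34 did. The highest median in stimulated cells was that of the clone 2010107E04Rik, by its identifier Atp5mpl, which encodes a small protein of mitochondrial ATP synthase, at 387.1 TPM (324.1 to 462.4 TPM over the genotypes). It had 198.7 TPM in resting cells (77.5 to 210.0 TPM), and as a clone name it is given here after its values were seen. The cysteine-rich LIM protein gene Crip1 had a median of 159.0 TPM in stimulated cells (149.6 to 215.8 TPM over the genotypes) and of 497.4 TPM in resting cells (188.2 to 593.6 TPM). The translation initiation factor gene Eif5 had 153.3 TPM in stimulated cells (146.9 to 175.3 TPM) and 278.4 TPM in resting cells (166.3 to 316.9 TPM). Crip1 had the highest resting median. Its range overlapped that of Eif5 in both states, though within each resting library Crip1 was above Eif5. In stimulated cells the order of Crip1 and Eif5 differed between libraries. On the V side the median in resting cells was highest for Gm6768 at 23.56 TPM, a copy gene with uncertain values, then Esyt2 at 16.77 TPM and Zfp386 at 16.27 TPM.

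Promoters are shown for Ncapg2 and Siva1, the members whose promoters hold the first motif described below, and for Tmem121, the first named gene beyond the 3'RR. Ncapg2 had the largest rise with stimulation among the tested members. Siva1 also rose, though its rise was not the next largest. RefSeq promoters (250 bases before to 50 bases after the start, GRCm38.p6) were found for 60 members, as 72 promoters. The letters TTTCCCGC or their reverse complement GCGGGAAA, a form of the motif of the cell cycle factors E2F, were present in 2 of these 72 promoters (2.78%), those of Siva1 and Ncapg2, against 1.07% of 32851 promoters of all genes. The octamer ATGCAAAT, the motif of the transcription factors Oct1 and Oct2, was in none of the members' promoters and in 1.74% of all promoters on either strand. The motif TTTGAA, known as CHR and found at some cell cycle genes, was in 13.89% of the members' promoters and 17.89% of all. A match is only a run of letters and not a bound site, no link between these letters and a change with stimulation was tested, and other members that rose, such as Cdca4, had no E2F letters. The promoters of Ncapg2 (12:116405186-116405485, plus strand) and Siva1 (12:112644578-112644877, plus strand) have the E2F letters in capitals. That of Ncapg2 also holds the CHR letters, left in lower case, and that of Tmem121 (12:113185653-113185952, plus strand) holds none of the 3 motifs.
Ncapg2: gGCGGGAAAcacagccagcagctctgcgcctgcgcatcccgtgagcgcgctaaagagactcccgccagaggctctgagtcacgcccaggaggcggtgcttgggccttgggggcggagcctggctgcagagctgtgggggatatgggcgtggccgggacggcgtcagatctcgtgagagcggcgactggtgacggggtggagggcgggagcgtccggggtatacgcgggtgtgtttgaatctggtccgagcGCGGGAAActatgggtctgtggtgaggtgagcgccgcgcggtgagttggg
Siva1: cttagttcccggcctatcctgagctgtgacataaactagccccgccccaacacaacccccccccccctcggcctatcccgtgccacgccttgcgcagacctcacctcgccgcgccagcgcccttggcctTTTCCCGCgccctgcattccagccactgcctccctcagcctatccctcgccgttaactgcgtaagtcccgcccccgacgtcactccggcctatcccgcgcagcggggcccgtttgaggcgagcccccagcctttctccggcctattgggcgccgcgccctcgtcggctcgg
Tmem121: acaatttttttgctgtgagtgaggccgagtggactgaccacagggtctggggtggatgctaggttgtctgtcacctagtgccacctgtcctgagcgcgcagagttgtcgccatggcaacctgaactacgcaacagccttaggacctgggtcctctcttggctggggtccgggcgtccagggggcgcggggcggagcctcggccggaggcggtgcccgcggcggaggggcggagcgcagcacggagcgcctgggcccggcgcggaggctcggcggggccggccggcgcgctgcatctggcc

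The genes nearest to the deleted enhancers come first. Among the 15 nearest tested members with an established gene name, 8 on the 3' side and 7 on the V side, none passed the test for the 3'RR deletion (background 1.88% of all genes tested), the hs3b-hs4 deletion (0.135%) or the 3'PAL deletion (0.514%) over both states. The test was edgeR's quasi-likelihood test with genotype and state as terms and Benjamini-Hochberg adjustment over 14789 genes, in which the states serve as replicates of a genotype. It assumes that a genotype has the same effect in both states.

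Tmem121, a membrane protein gene 69.2 kb from the start of Igha, had 2.31, 1.15 and 1.38 CPM in stimulated 3'RR, hs3b-hs4 and 3'PAL deletion cells, against 1.09 CPM in stimulated wild-type cells. Its resting levels were 4.16, 6.03 and 3.94 CPM in the mutants in that order, against 4.20 CPM in wild-type cells. The 3'RR deletion library was the highest of the stimulated libraries and lay among the others in resting cells. Its log2 fold change over both states was 0.52 ± 0.381 (SE) for the 3'RR deletion, with a 95% interval of -0.38 to 1.42 and an edgeR adjusted p of 0.61, so even a doubling lay within the interval. For the hs3b-hs4 and 3'PAL deletions the log2 fold changes were 0.36 ± 0.379 and 0.09 ± 0.383.

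Crip1, 104.9 kb away, had 51.2, 36.3 and 33.8 CPM in stimulated 3'RR, hs3b-hs4 and 3'PAL deletion cells and 34.1 CPM in stimulated wild-type cells. Resting levels were 118.5, 110.4 and 103.4 CPM in these mutants and 72.2 CPM in wild-type cells. All 3 mutants were above wild-type in resting cells, and in stimulated cells only the 3'RR deletion library stood clear of the others. The log2 fold change for the 3'RR deletion was 0.65 ± 0.159 (edgeR adjusted p = 0.12), with an interval of 0.27 to 1.02. Its neighbour Crip2, also a LIM protein gene 113.3 kb away, had 1.08, 0.792 and 0.778 CPM in the stimulated mutants and 0.952 CPM in stimulated wild-type cells. In resting cells Crip2 had 11.1, 5.61 and 4.84 CPM in the 3'RR, hs3b-hs4 and 3'PAL deletions and 3.74 CPM in wild-type cells, with the 3'RR deletion library far above the other 3. The fitted log2 change of Crip2 for the 3'RR deletion was 1.00 ± 0.345 (edgeR adjusted p = 0.26).

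None of the next genes on the 3' side passed the test. Mta1, a subunit of the nucleosome remodelling complex NuRD, had 26.8, 27.8 and 21.7 CPM in stimulated 3'RR, hs3b-hs4 and 3'PAL deletion cells and 22.1 CPM in stimulated wild-type cells. At rest it had 19.1, 20.1 and 19.5 CPM in the mutants and 18.4 CPM in wild-type cells. The stimulated libraries split by whether hs3b and hs4 were missing, while the resting libraries all lay close together. Brf1, a subunit of the RNA polymerase III factor TFIIIB, gave the narrowest intervals on this side, with log2 fold changes of 0.03 ± 0.107 for the 3'RR deletion (-0.22 to 0.28), 0.09 ± 0.107 for the hs3b-hs4 deletion (-0.16 to 0.34) and -0.03 ± 0.107 for the 3'PAL deletion (-0.28 to 0.22). For Pacs2, a membrane traffic gene, the 3 log2 fold changes were 0.18, 0.20 and -0.10 in the same order. Btbd6, an adaptor of the Cul3 ubiquitin ligase, gave 0.05, 0.11 and 0.13, and the nucleoside diphosphate sugar hydrolase gene Nudt14 gave 0.46, 0.23 and 0.30. Nudt14 had 3.87, 2.81 and 4.17 CPM in the stimulated mutants and 3.46 CPM in stimulated wild-type cells, and 5.04, 4.83 and 3.69 CPM in the resting mutants and 2.91 CPM in resting wild-type cells. Its resting wild-type library was the lowest of the 4, while the stimulated mutants lay on both sides of wild-type.

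On the V side the zinc finger gene Zfp386, 47.3 kb from the last Igh entry, had 28.78, 27.2 and 25.2 CPM in stimulated 3'RR, hs3b-hs4 and 3'PAL deletion cells and 29.1 CPM in stimulated wild-type cells. At rest it had 28.7, 31.1 and 34.2 CPM in the mutants and 33.8 CPM in wild-type cells, so the mutants lay on both sides of wild-type. The lipid transfer gene Esyt2 gave the narrowest intervals on this side, with a log2 fold change of -0.06 ± 0.103 for the 3'RR deletion (-0.30 to 0.18). Wdr60, a dynein-2 subunit gene, had the lowest value on this side at -0.57 ± 0.27 (edgeR adjusted p = 0.42). It was at 2.22 CPM in resting 3'RR deletion cells, below 4.32 and 4.84 CPM in the resting hs3b-hs4 and 3'PAL deletions and 4.00 CPM in resting wild-type cells. Ncapg2, Rapgef5, Cdca7l and Sp4 lay between -0.12 and 0.35 for the 3'RR deletion.

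Over both states, the 3'RR deletion values of the 8 named neighbours on the 3' side ran from 0.03 to 1.00 and those of the 7 on the V side from -0.57 to 0.35. The 95% intervals stayed within a doubling and a halving for 4 of 8 and 5 of 7 of them. With the hs3b-hs4 deletion this held for 6 of 8 and 6 of 7, and with the 3'PAL deletion for 6 of 8 and 7 of 7. For the constant genes of the locus in the same fit, Ighm had a log2 fold change of -1.29 ± 0.163 with the 3'RR deletion (edgeR adjusted p = 0.0126) and Ighg3 one of -9.04 ± 1.28 (adjusted p = 0.0196), while Igha at -1.82 ± 0.336 had an adjusted p of 0.0502. None of these constant genes passed for the hs3b-hs4 or 3'PAL deletion. Ighg3 had -2.69 ± 0.764 for the hs3b-hs4 deletion (edgeR adjusted p = 0.363) and -0.48 ± 0.721 for the 3'PAL deletion. In the same order Ighm had 0.29 ± 0.161 and -0.36 ± 0.161, and Igha had 0.60 ± 0.302 and -0.25 ± 0.311. In bulk RNA, fewer cells of a type and less RNA per cell cannot be told apart, here and in all that follows.

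**Figure D1:**
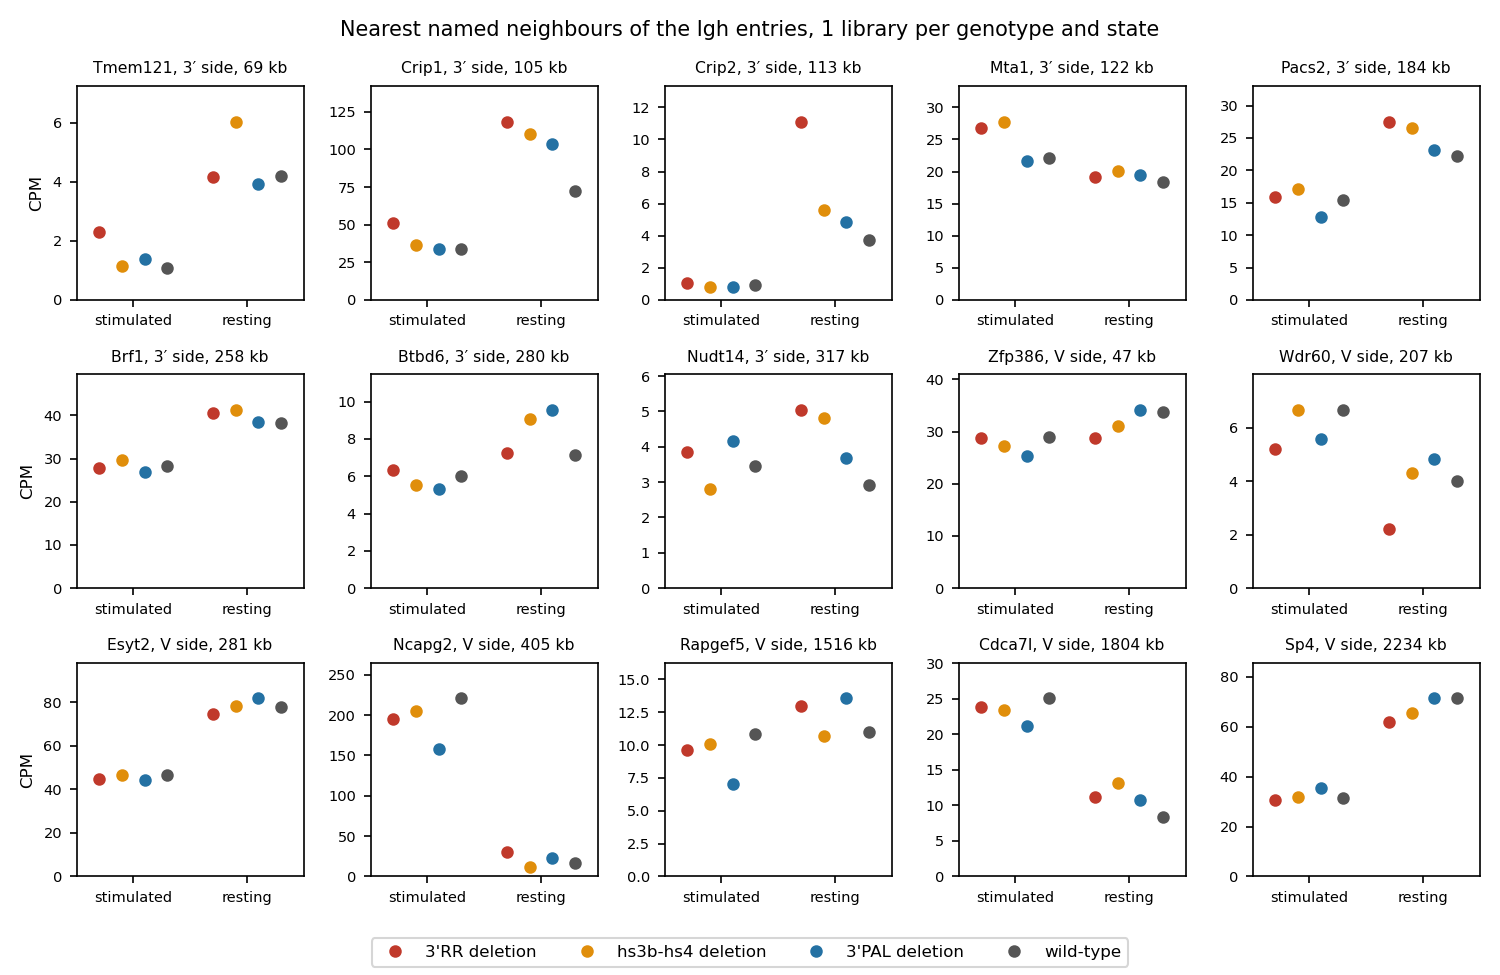
Level in CPM of the 15 nearest named neighbours in every library (1 point per library, mutants then wild-type, stimulated left and resting right, each axis from 0), with the side and distance of each gene. Crip1 and Crip2 in resting 3'RR deletion cells reach 118.5 and 11.1 CPM, above 72.2 and 3.74 CPM in resting wild-type cells, and the points of Brf1, Zfp386 and Esyt2 lie close together within a state.

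Across all 52 tested members, 1 passed the test for the 3'RR deletion (background 1.88% of 14789 genes, or 278 genes), 0 for the hs3b-hs4 deletion (background 0.135%) and 0 for the 3'PAL deletion (background 0.514%). These shares are close to the backgrounds. At an unadjusted p under 0.05 there were 7, 3 and 6 of 52 members (13.5%, 5.77% and 11.5%), against 13.7%, 8.9% and 9.55% of all genes tested. The median log2 fold change was 0.09 for the 3'RR deletion against 0.05 over all genes tested, 0.12 for the hs3b-hs4 deletion against 0.04, and 0.05 for the 3'PAL deletion against 0.03. By DESeq2 the numbers of members called were the same, with 526, 181 and 256 genes called in all for these mutants.

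The single member called was Gm16710 (12:115802648-115803080, minus strand), which lies among the Igh entries. By its gene identifier it is the variable segment Ighv1-74 in GENCODE M21, so it is part of the IgH locus and was kept by the position rule only because of its older name. It had 0.186, 1.03 and 0.849 CPM in stimulated 3'RR, hs3b-hs4 and 3'PAL deletion cells, against 2.05 CPM in stimulated wild-type cells. In resting cells it had 0.0705, 0.156 and 0.246 CPM in these mutants, against 0.830 CPM in wild-type cells. Wild-type was highest and the 3'RR deletion lowest in both states, on raw counts as low as 5 stimulated and 2 resting with the 3'RR deletion, where wild-type had 58 and 16. The log2 fold change was -3.49 ± 0.545 for the 3'RR deletion (edgeR adjusted p = 0.028), -1.45 ± 0.446 for the hs3b-hs4 deletion (adjusted p = 0.40) and -1.46 ± 0.45 for the 3'PAL deletion (adjusted p = 0.33). The call was lost when either 3'RR deletion library or either wild-type library was left out, and V segments share sequence, so reads may be split between them. In the authors' estimated transcript counts this segment held 0, 3 and 7 in the stimulated mutants and 17 in stimulated wild-type cells, and 0 to 2 in every resting library. The mice are of mixed background, and which strain's alleles each library carries at this segment or at the flanking members was not examined. Without the immunoglobulin segments, 0 of 51 members were called for the 3'RR deletion by edgeR, with 6 at an unadjusted p under 0.05.

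The other tested member among the Igh entries, Adam6b, a sperm protein gene that lies between segments of the locus, was near the limit of detection. Its raw counts were 1, 14 and 8 in stimulated 3'RR, hs3b-hs4 and 3'PAL deletion cells and 11 in stimulated wild-type cells. Its log2 fold change for the 3'RR deletion, -1.75 ± 0.755, did not pass the test (edgeR adjusted p = 0.37).

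Some members below the adjusted threshold are named here after their values were seen, as those with an unadjusted p under 0.05 in more than 1 mutant or with the largest size. Cdc42bpb, a kinase that acts on the cytoskeleton below Cdc42, had 13.9, 16.2 and 17.2 CPM in stimulated 3'RR, hs3b-hs4 and 3'PAL deletion cells and 12.3 CPM in stimulated wild-type cells. At rest it had 19.4, 29.5 and 24.2 CPM in the mutants and 16.6 CPM in wild-type cells. Wild-type was lowest in both states, and the log2 fold changes were 0.20 ± 0.152, 0.62 ± 0.152 and 0.51 ± 0.152 (edgeR adjusted p = 0.63, 0.28 and 0.31). Ahnak2, a large scaffold protein gene, gave 2.05 ± 0.635 for the 3'PAL deletion (adjusted p = 0.33), on levels under 1 CPM in every library.

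**Figure D2:**
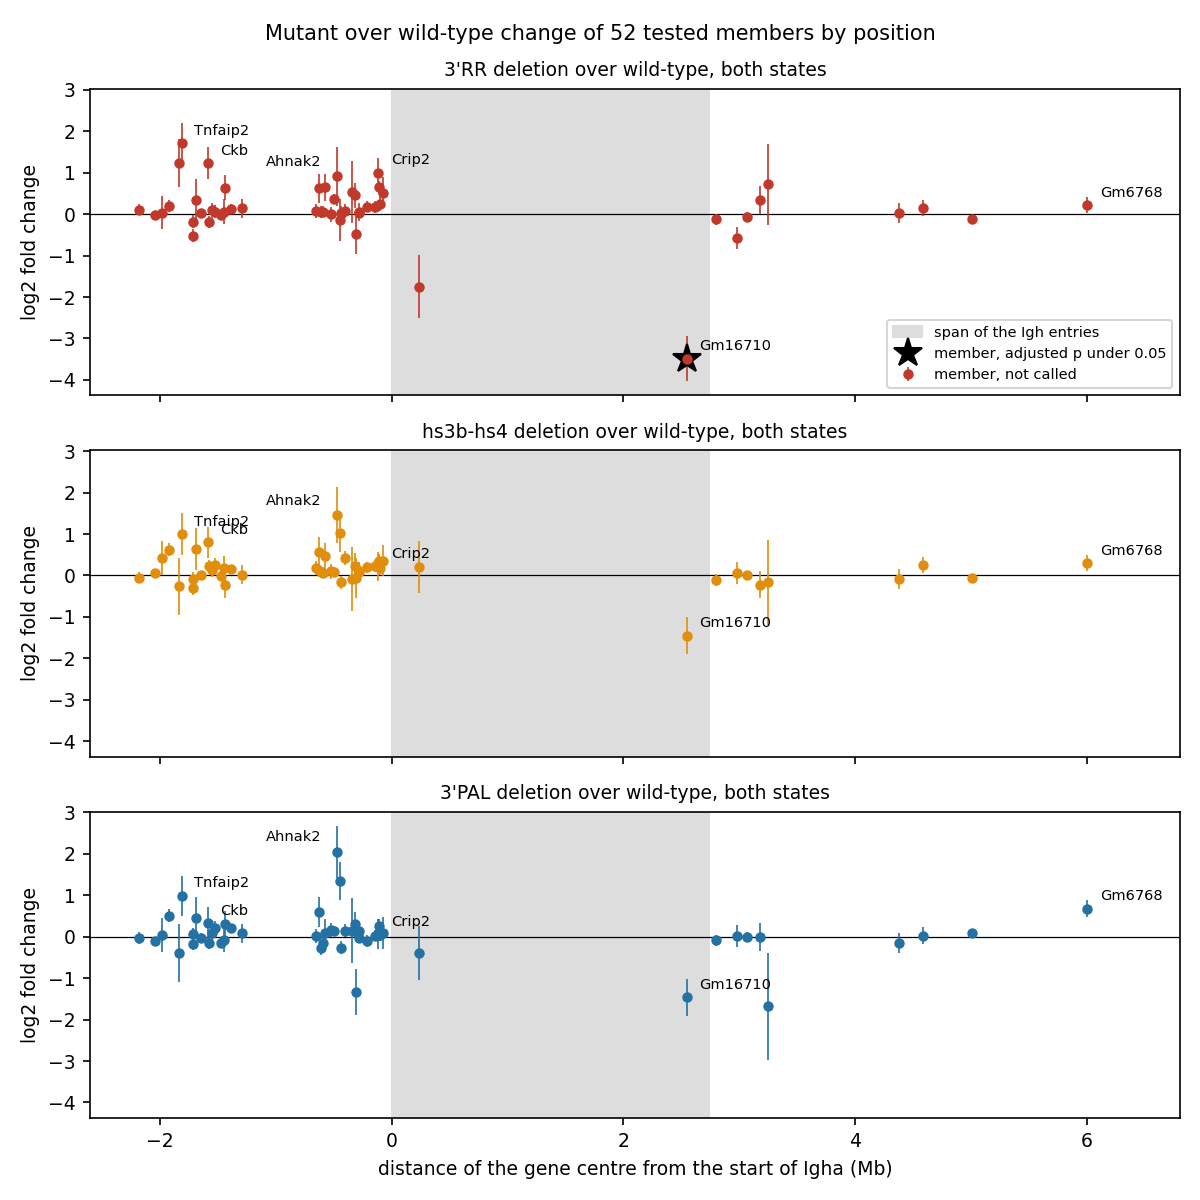
Log2 fold change of each mutant over wild-type, both states together, for the 52 tested members (points, bars are SE where it could be computed) by distance of the gene centre from the start of Igha in Mb, with the span of the Igh entries in grey. The star marks Gm16710 at -3.49 for the 3'RR deletion, the only member called, and most other points lie near 0 in all 3 panels.

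By distance, the 9 tested members nearest on the 3' side, 69.2 to 308.3 kb away, had a median log2 fold change of 0.18 for the 3'RR deletion, against 0.09 for the other 32 on this side and 0.02 for the 9 on the V side. Their median absolute change was 0.25, against 0.14 and 0.14 in these groups and 0.20 over all genes tested. For the hs3b-hs4 deletion the medians of these groups were 0.20, 0.15 and -0.06, and for the 3'PAL deletion 0.05, 0.10 and 0.00. The median absolute changes were 0.20, 0.20 and 0.11 for the hs3b-hs4 deletion and 0.09, 0.15 and 0.08 for the 3'PAL deletion. Each group holds few genes, no test was run between them, and all 3 mutants share the wild-type libraries. The member with the highest value for the 3'RR deletion, Tnfaip2, lies 1804 kb away.

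Genotypes that lack hs3b and hs4 (the 3'RR and hs3b-hs4 deletions) were also compared with those that keep them (the 3'PAL deletion and wild-type) within each state, with the genotypes as replicates. In stimulated cells 0 of 52 members and 0 of 14789 genes (0.0%) passed edgeR's quasi-likelihood test, and in resting cells again 0 of 52 and 0.0%. At an unadjusted p under 0.05 there was 1 member in stimulated cells, Mta1 at 0.32 ± 0.111 (1.92%, against 2.66% of all genes tested), and there were 2 in resting cells, Ckb and Crip2 (3.85%, against 5.88%). DESeq2 called 0 members and 7 genes in all in stimulated cells, and 1 member, Ckb, and 76 genes in all in resting cells.

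Within a state, mutant and wild-type cells were also set side by side with no test. A member counted as different where its log2 ratio on CPM + 1 was 1 or more in size and the library with more of it held 10 CPM or more. In stimulated cells no member met this for any mutant, among 29 members at or above 10 CPM in each comparison, where 3.25%, 1.47% and 3.06% of all such genes did for the 3'RR, hs3b-hs4 and 3'PAL deletions. In resting cells 3 of 31 members did for the 3'RR deletion (background 5.68%), 1 of 30 for the hs3b-hs4 deletion (3.65%) and 2 of 28 for the 3'PAL deletion (3.63%). All were higher in the mutant. Most genes of the whole table past this rule were too: 356 of 477, 175 of 302 and 188 of 298 in the same order. The members past the rule were 4 genes in all, Tnfaip2, Ckb, Crip2 and Gm6768, none of which passed the test over both states.

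Tnfaip2 (12:111442469-111455018), a TNF-inducible gene related to the exocyst and active in myeloid cells, had 0.706, 0.990 and 0.318 CPM in stimulated 3'RR, hs3b-hs4 and 3'PAL deletion cells and 0.317 CPM in stimulated wild-type cells. Its resting levels were 24.6, 9.69 and 15.6 CPM in the mutants, against 6.49 CPM in wild-type cells. Every resting library was above every stimulated one, and resting 3'RR deletion cells were highest. The resting ratio to wild-type was 3.79 for the 3'RR deletion (95% interval 3.13 to 4.62, exact conditional binomial, for counting error only), 1.49 for the hs3b-hs4 deletion (1.20 to 1.87) and 2.41 for the 3'PAL deletion (1.96 to 2.97). Over both states the 3'RR deletion gave a log2 fold change of 1.71 ± 0.48 (edgeR adjusted p = 0.17).

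Ckb (12:111669355-111672338), the brain type creatine kinase, which buffers ATP, had 9.29, 8.16 and 8.84 CPM in stimulated 3'RR, hs3b-hs4 and 3'PAL deletion cells and 6.28 CPM in stimulated wild-type cells. In resting cells it had 23.8, 15.9 and 7.34 CPM in the mutants, against 6.85 CPM in wild-type cells. The resting values split by hs3b and hs4, with both genotypes that lack them above both that keep them, and the stimulated values did not. The resting ratio was 3.48 for the 3'RR deletion (2.89 to 4.23), 2.33 for the hs3b-hs4 deletion (1.91 to 2.85) and 1.07 for the 3'PAL deletion (0.851 to 1.35). Lacking against kept in resting cells, the log2 fold change was 1.49 ± 0.259, with an edgeR adjusted p of 0.66 and an unadjusted p of 0.0008. It was 1.17 without the resting 3'RR deletion library and 1.43 without the resting wild-type library. For Crip2, given above, the resting ratio was 2.97 for the 3'RR deletion (2.30 to 3.90).

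Markers of other cells also differed between the resting libraries. The 10 monocyte and macrophage markers summed to 1630, 714.0 and 367.8 CPM in resting 3'RR, hs3b-hs4 and 3'PAL deletion cells and to 479.1 CPM in resting wild-type cells, and 10, 9 and 1 of the 10 were above wild-type in these mutants. The 8 erythroid markers summed to 13460, 10700 and 21540 CPM in the resting mutants and 3109 CPM in resting wild-type cells, and all 8 were above wild-type in each mutant. Dendritic cell markers summed to 153.4, 119.1 and 49.65 CPM in the resting mutants and 71.9 CPM in resting wild-type cells. In these mutants 3, 3 and 0 of 4 were above wild-type. Plasma cell markers summed to 1019, 1829 and 1632 CPM against 955.9 CPM, with 4, 6 and 6 of 6 above wild-type. Irf4 and Prdm1 were below wild-type in resting 3'RR deletion cells. T cell markers summed to 53.46, 62.83 and 34.72 CPM against 31.33 CPM, with 7, 6 and 5 of 7 above wild-type. Cd4, Cd8a and Lck made up most of the T cell sums, while Cd3e, Cd3d, Cd3g and Thy1 had at most 0.5995 CPM in any resting library. For megakaryocyte and platelet markers the sums were 57.13, 18.06 and 11.85 CPM against 37.14 CPM, with 4, 0 and 0 of 4 above wild-type. Among resting 3'RR deletion, hs3b-hs4 deletion and wild-type cells, Tnfaip2, Ckb and Crip2 stood in the same order as the monocyte and macrophage sum. In the resting 3'PAL deletion all 3 genes were above wild-type where that sum was below it. In stimulated cells, where no member met the size rule, the sum was 20.63, 13.27 and 14.88 CPM in these mutants and 12.09 CPM in wild-type cells. Of its defining genes C1qc had no count in any stimulated library, while Emr1, which encodes F4/80, had 4.618 to 6.729 CPM and Cd68 had 1.481 to 2.687 CPM. The part of these cells in the values of Tnfaip2, Ckb and Crip2 was not tested.

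**Figure D3:**
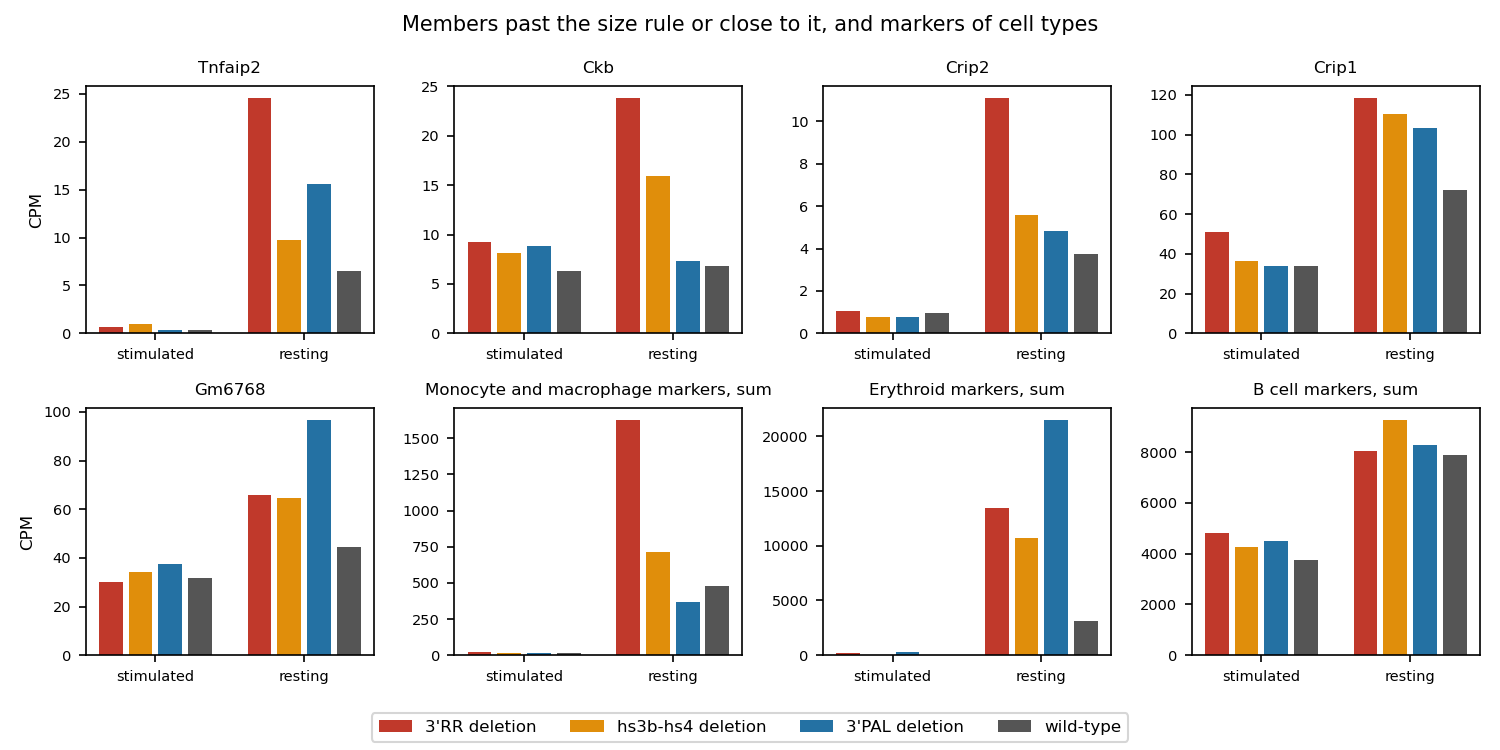
CPM in each library of 5 members and of the summed markers of 3 cell types (bars from 0, mutants then wild-type, stimulated left and resting right, each panel with its own axis). Tnfaip2, Ckb and Crip2 are highest in resting 3'RR deletion cells at 24.6, 23.8 and 11.1 CPM, where the monocyte and macrophage sum reaches 1630 CPM, against 479.1 CPM in resting wild-type cells.

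Gm6768 (12:119260934-119264272), at the far end of the V side, is a processed pseudogene in GENCODE M21 that RefSeq lists as Ncoa4-ps, a copy of the ferritin receptor gene Ncoa4, so reads may be split between the copies and its values are uncertain. In the gene counts it had 30.1, 34.4 and 37.7 CPM in stimulated 3'RR, hs3b-hs4 and 3'PAL deletion cells and 31.9 CPM in stimulated wild-type cells. In resting cells it had 65.7, 64.7 and 96.9 CPM in the mutants, against 44.6 CPM in wild-type cells, with a resting ratio of 2.17 for the 3'PAL deletion (2.01 to 2.35). The authors' estimated transcript counts gave another picture, with 0, 1030 and 1729 for Gm6768 in the stimulated mutants and 269 in stimulated wild-type cells, and 6, 2902 and 3946 in the resting mutants and 411 in resting wild-type cells. In these estimates the 3'RR deletion was nearly without it in both states and the other mutants were above wild-type. Ncoa4 moved the other way, with 5405, 803 and 970 estimated counts in the resting mutants and 1792 in resting wild-type cells. Summed, both genes came to 118.0, 103.5 and 106.1 CPM in the stimulated mutants and 115.9 CPM in stimulated wild-type cells, a far narrower spread than for Gm6768 alone. In resting cells the sum was 233.5, 175.5 and 247.8 CPM in the mutants and 143.6 CPM in wild-type cells. Fitted on the estimated counts, Gm6768 had a log2 fold change of -7.21 ± 0.351 for the 3'RR deletion (edgeR adjusted p = 0.00014), 2.20 ± 0.19 for the hs3b-hs4 deletion (0.011) and 2.75 ± 0.193 for the 3'PAL deletion (0.0017), so its direction for the 3'RR deletion depends on the counting.

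Between resting and stimulated cells, most members changed, as did most genes. Stimulated against resting cells over the 4 genotypes, 38 of 52 members passed edgeR's quasi-likelihood test, close to the background of 69.7% of all genes tested. Of these, 17 were higher (background 34.5%) and 21 lower (background 35.2%), and the median log2 fold change was -0.32 against -0.02 over all genes. On the 3' side 12 members rose and 18 fell of 41, and on the V side 4 rose and 3 fell of 9. Here the genotypes serve as replicates, and resting and stimulated cells also differ in the markers of other cells given above. Only the stimulated cells were cultured, and no library came from cells cultured without LPS. Stimulation therefore stands for LPS and culture together in every rise and fall given here, and their separate parts were not tested.

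Of the 13 tested members with roles in chromatin, transcription, translation and cell division, 6 rose and 5 fell (84.6% called, background 69.7%). Ncapg2 on the V side, a subunit of condensin II that compacts chromosomes for mitosis, had 195.5, 204.9 and 157.8 CPM in stimulated 3'RR, hs3b-hs4 and 3'PAL deletion cells and 221.1 CPM in stimulated wild-type cells. In resting cells it had 29.9, 12.03 and 22.8 CPM in these mutants and 16.0 CPM in wild-type cells. The states did not overlap, and its log2 fold change of 3.33 ± 0.259 (edgeR adjusted p = 3.7e-05) was the highest among the tested members. The ratio was 6.54 in the 3'RR deletion (6.08 to 7.04), 17.0 in the hs3b-hs4 deletion (15.2 to 19.2), 6.91 in the 3'PAL deletion (6.33 to 7.56) and 13.8 in wild-type cells (12.3 to 15.5). Whether this rise differs between genotypes could not be tested with 1 library each. Its promoter, printed above, holds GCGGGAAA at 2 places.

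Cdca4, a cell cycle gene 429.4 kb from Igha, had 75.7, 77.3 and 59.6 CPM in the stimulated mutants and 83.8 CPM in stimulated wild-type cells, against 30.7, 22.0 and 25.6 CPM in the resting mutants and 26.0 CPM in resting wild-type cells (log2 fold change 1.5 ± 0.119, edgeR adjusted p = 4e-05). Cdca7l, which binds Myc, rose by 1.12 ± 0.139 on the log2 scale, and Mta1 rose by 0.34 ± 0.0964. The call of Mta1 was lost without either 3'RR deletion or either hs3b-hs4 deletion library (0.27 to 0.32, edgeR adjusted p = 0.065 to 0.11). Members of this list also fell. Ppp1r13b, known as ASPP1 and a partner of p53, had 16.3 to 19.9 CPM over the 4 stimulated libraries and 42.2 to 46.1 CPM over the 4 resting ones (log2 fold change -1.27 ± 0.0812, edgeR adjusted p = 2e-05). The transcription factor gene Sp4 had 30.8 to 35.3 CPM in stimulated and 61.9 to 71.5 CPM in resting cells (-1.06 ± 0.0752). Eif5, the most abundant member by counts, had 389.9 to 449.9 CPM in stimulated and 594.4 to 838.6 CPM in resting cells (-0.76 ± 0.113), Rcor1 of the CoREST complex had -0.53 ± 0.0962, and Brf1 had -0.49 ± 0.0757.

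Among the 10 tested members with roles in signalling and at the cell surface, 2 rose and 5 fell (70.0% called, background 69.7%). Siva1, an apoptosis gene whose protein binds CD27, had 28.3, 31.1 and 22.4 CPM in stimulated 3'RR, hs3b-hs4 and 3'PAL deletion cells and 30.5 CPM in stimulated wild-type cells. At rest it had 7.09, 6.85 and 5.70 CPM in the mutants and 6.02 CPM in wild-type cells. The states were clearly apart, with a log2 fold change of 2.12 ± 0.107 (edgeR adjusted p = 1e-05). The kinase gene Akt1, which carries survival and growth signals, had 88.4 to 110.5 CPM in stimulated and 55.0 to 65.3 CPM in resting cells (0.77 ± 0.0897). Gpr132, a receptor that senses lipids and acid, had 26.0, 29.8 and 28.9 CPM in the stimulated mutants and 28.5 CPM in stimulated wild-type cells, against 84.9, 117.1 and 84.5 CPM in the resting mutants and 68.5 CPM in resting wild-type cells (-1.63 ± 0.122, edgeR adjusted p = 3.2e-05). Traf3, an adaptor that restrains noncanonical NF-kB in B cells, fell by 0.65 on the log2 scale with an SE of 0.0713. The endolysosomal exonuclease gene Pld4 had -0.63 ± 0.0878, and Tmem121 had -1.65 ± 0.273, with 1.09 to 2.31 CPM in stimulated and 3.94 to 6.03 CPM in resting cells.

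The list with cytoskeleton and trafficking roles had 14 tested members, of which 4 rose and 8 fell (85.7% called, background 69.7%). Tnfaip2 had the largest fall of any tested member, -4.54 ± 0.363 on the log2 scale (edgeR adjusted p = 4.1e-05), and in each genotype its stimulated over resting ratio was between 0.0204 and 0.102. Crip2 had -2.71 ± 0.253 and Crip1 -1.38 ± 0.114, with every stimulated library below every resting one for both. Esyt2 had 44.4 to 46.8 CPM in stimulated and 74.7 to 82.0 CPM in resting cells (-0.78 ± 0.0735), and Pacs2 had -0.70 ± 0.0965. The motor protein gene Klc1 went the other way, with 39.8 to 40.8 CPM in stimulated and 26.8 to 32.7 CPM in resting cells (0.41 ± 0.083, edgeR adjusted p = 0.0032), as did Wdr60 (0.69 ± 0.191). The call of Wdr60 was lost without either 3'RR deletion library (0.53 and 0.50, edgeR adjusted p = 0.05 and 0.062). The falls of Tnfaip2, Crip1 and Crip2 stand beside the loss of monocyte, macrophage and erythroid markers from stimulated cells given above, and the part of those cells was not tested.

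Of the 6 tested members with roles in metabolism, mitochondria and protein turnover, 0 rose and 1 fell (16.7% called, background 69.7%). That share rests on few genes and was not tested against the background. The member that fell was Btbd6 at -0.50 ± 0.159 (edgeR adjusted p = 0.025). That call was lost without either hs3b-hs4 deletion or either 3'PAL deletion library (-0.42 to -0.37, edgeR adjusted p = 0.084 to 0.11). Ckb had -0.57 ± 0.269, which did not pass (adjusted p = 0.097) but did without either 3'PAL deletion library (-0.84 and -0.83, edgeR adjusted p = 0.017 and 0.019), and Nudt14 had -0.19 ± 0.215. Zfp386 at -0.21 ± 0.0956 and the Rap activator gene Rapgef5 at -0.37 ± 0.173 did not pass either (adjusted p = 0.085 and 0.091).

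**Figure D4:**
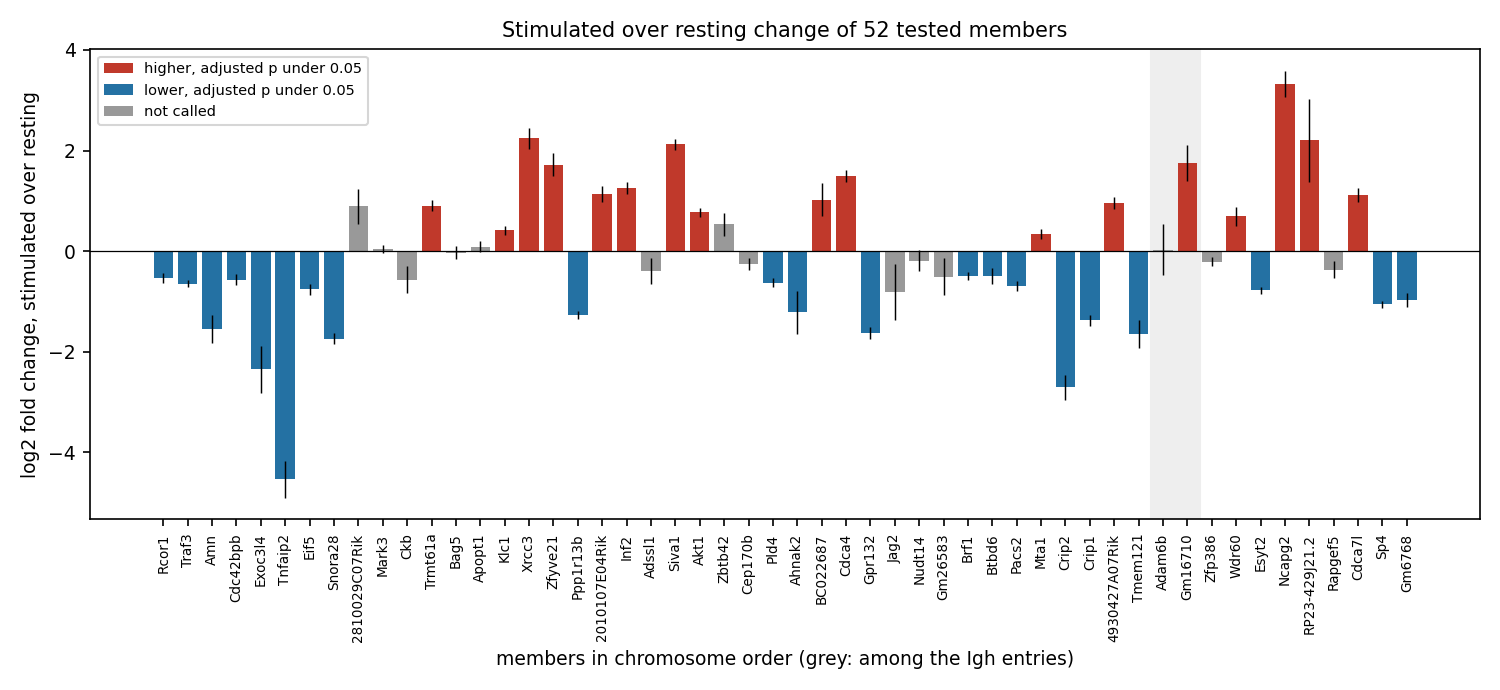
Log2 fold change of stimulated over resting cells for the 52 tested members in chromosome order (bars, with SE), red for members higher and blue for members lower at an adjusted p under 0.05, grey bars for the rest. Rises and falls are interspersed along the chromosome, from Tnfaip2 at -4.54 on the 3' side to Ncapg2 at 3.33 on the V side.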

How the data were processed

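Per the submitters' processing notes, reads were aligned to GRCm38 (mm10) with STAR 2.4.0a, counted with featureCounts of Subread 1.4.6-p1, and transcripts were quantified with kallisto 0.42.3 (bedtools and SAMtools were used too). As deposited by the authors, the gene table holds raw counts, and no annotation version or strand setting is given in the sources used here. The estimated counts per transcript deposited by the authors come from kallisto, and so do the TPM values deposited by the authors in a separate table. Both were summed per gene here. In the TPM table some annotation headers do not match their columns, which were read by content. An entry without a name (0.0062 to 0.034% of counts) and 92 spike-ins without counts were left out.

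Counts were scaled by TMM (factors 0.943 to 1.08) with edgeR 4.0.16 in R 4.3.3 and filtered with filterByExpr to 14789 genes. The genotype and state fit had 3 residual degrees of freedom and a biological coefficient of variation of 16%. The fit with 4 groups of 2 libraries had 4 and 25.8%. The threshold was an adjusted p of 0.05 over all genes tested. Because libraries are pools and different genotypes or states serve as replicates, p-values measure no spread between animals or between pools of the same genotype and state. In the genotype and state fit the error is the departure of the 8 libraries from additive effects. A difference between the pools of a genotype and wild-type that is present in both states counts there as a genotype effect. In the fit with 4 groups the error is the spread between the 2 genotypes of a group. DESeq2 1.42.0, other scalings, no filter, estimated counts and left-out libraries were alternatives. The scripts were tested on simulated data.

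Members were matched to GENCODE M21 by gene identifier (76 of 109), and 4 are immunoglobulin segments by identifier. Exons of 14 members overlap those of another gene, and reads there cannot be assigned with certainty. Named were members called for a mutant, those past the size rule, the 8 nearest tested members with established names on each side (7 exist on the V side), and up to 8 rises and 8 falls with stimulation of mean log2 CPM of at least 5, plus up to 4 called members per role list with the lowest adjusted p. Some other nearest or listed members are named for completeness after their values were seen. Members, lists and tests were chosen with earlier results of these data known.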

Additional observations from a re-analysis of the deposited data

Results flagged for a closer look

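The stimulated over resting ratio of Bag5, a co-chaperone gene 1546 kb from Igha, had counting intervals on opposite sides of 1 in different genotypes. It was 0.878 in the hs3b-hs4 deletion (0.781 to 0.986) and 0.774 in the 3'PAL deletion (0.689 to 0.870), against 1.15 in the 3'RR deletion (1.02 to 1.28) and 1.18 in wild-type cells (1.03 to 1.34). The same held for Jag2, a Notch ligand gene, with 2.76 in the 3'PAL deletion (1.32 to 6.29) against 0.264 in the 3'RR deletion (0.135 to 0.480) and 0.326 in wild-type cells (0.149 to 0.674), on 10 to 56 counts per library. Each genotype and state has 1 library, so these differences between genotypes were not tested, and the intervals cover counting error only.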

How the results depend on the processing

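For the 3'RR deletion over both states, the number of members called was 1 as reported. With no filter on low counts it was 3 of 85 (Gm16710, Tnfaip2 and Ckb), where 657 of 25075 genes were called. It was 0 without the immunoglobulin segments, an alternative chosen after seeing the data. Leaving out 1 library at a time gave 0 to 1, with the call lost without either 3'RR deletion library or either wild-type library, and gave 33 to 40 members for stimulation, where leaving out both libraries of a genotype gave 33 to 40 as well. A genotype left with 1 library was assumed to vary like the others. Lacking against kept in resting cells gave 1 member, Ckb, with no filter (log2 fold change 1.48) and 1, again Ckb, by DESeq2 (1.47). Over all genes, 71 of 25075 were called with no filter and 76 by DESeq2. With estimated transcript counts, 1 of 49 members was called for the hs3b-hs4 deletion and 1 for the 3'PAL deletion. Over all genes these numbers were 35 and 87 of 14907. Both members called were Gm6768, whose value for the 3'RR deletion reversed to -7.21. By the size rule the estimated transcript counts gave 4 members for the 3'RR deletion and 2 for the hs3b-hs4 deletion in resting cells. In stimulated cells they gave 1, 1 and 1 for the 3'RR, hs3b-hs4 and 3'PAL deletions. The shares over all genes by this rule are not given here for the estimated counts. The added member was Gm6768 each time, lower with the 3'RR deletion (log2 ratio -4.46 resting, -3.81 stimulated) and higher with the others. Scaling by library size alone left 0 members past the size rule for the resting 3'PAL deletion and shifted the median of all genes there to -0.12 (log2). The causes were not tested. Of the values of named members that were called, 383 of 402 alternatives kept direction and side of the threshold and 19 no longer passed. Of 1106 alternatives for values that were not called, 989 stayed the same, 107 moved by more than an SE, 9 newly passed and 1 reversed. Among those newly passing were Zfp386 (adjusted p = 0.024) and Rapgef5 (0.04) for stimulation when scaled by library size alone. Genotype is a term of the fit for stimulation, so the libraries of a genotype are paired there. The labels number no replicates, so no replicate block could be fitted. The 57 members with too few counts were not tested.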
